A study of Mus musculus with 24 samples.

Results

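Glycerol injected into a leg muscle destroys muscle fibres (rhabdomyolysis), and the myoglobin and heme set free injure the kidney. The comparison described here asks what that injury changed in the kidney by 24 h when miR-22 was inhibited. It sets the 7 arrays of kidneys labelled as rhabdomyolysis with anti-miR-22 against the 5 arrays labelled sham with anti-miR-22, which together are 12 of the 24 arrays in the series. Arrays were assigned to these groups by their sample titles, with no measured value used. The RNA on all 24 arrays came from halved kidneys, and the mice were C57BL/6N males, 10 weeks old. Anti-miR-22, an antisense oligonucleotide against miR-22-3p, was injected subcutaneously (20 mg/kg) a day, 24 h, before 50% glycerol was injected into the gastrocnemius under isoflurane. Sham animals went through the same protocol, with the same oligonucleotide, without the glycerol. Both groups had water withheld for 23 h in all and received the analgesic carprofen at 5 mg/kg. A pair of reference groups of 5 sham and 7 injured arrays received a mock oligonucleotide in place of anti-miR-22. The protocols describe a mild dose of 0.05 ml and a severe dose of 0.07 ml of glycerol per 10 g of body weight, and which of them these animals had is not in the sample labels. Whether every array stands for its own animal is not in the labels, and the p-values cover only the scatter among these samples, which may be technical.

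A microRNA is a short RNA that guides Argonaute proteins to messenger RNAs that carry a match to its seed, bases 2 to 8, and lowers their translation and stability. miR-22 is abundant in muscle and kidney and has reported targets among cell cycle, chromatin and energy metabolism genes. The kidney tubule reabsorbs most of what the glomerulus filters, and its proximal segment does so with energy from fat oxidation. After heme injury, tubule cells are known to lose their transport functions and to switch on repair, stress and inflammatory genes.

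The mature miR-22-3p, from RefSeq on GRCm38.p6, lies at chr11:75463772-75463793 on the plus strand. The oligonucleotides are those given in the study's protocol, and all are written 5′ to 3′. They are shown because the labels separate the groups compared here from the mock groups by oligonucleotide. Capitals mark the seed in the microRNA and, in the oligonucleotides, the 7 bases opposite the seed.
miR-22-3p: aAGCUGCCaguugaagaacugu
anti-miR-22: cttcaactGGCAGCT
mock: ctactacaGGCTGCT
Anti-miR-22 has 15 bases and pairs without a mismatch with bases 2 to 16 of the microRNA, seed included. Mock has the same length and differs from anti-miR-22 at 4 positions, 1 of them opposite the seed.

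The Clariom S array reports 1 value per probe set on a log2 scale, so a difference of 1 is a 2-fold change. Of 22205 probe sets tested, 19505 named genes were described, each by its brightest probe set. Array medians lay between 5.75 and 5.86. On the first principal component the sham arrays with anti-miR-22 lay between -75.02 and -71.67 and the injured arrays between 48.62 and 63.18, and no array stood apart from its own group. Defining genes of the kidney were bright in both groups: over 21 proximal tubule markers the mean log2 level was 16.59 to 16.81 in sham and 13.90 to 14.57 in injured arrays. Markers of skeletal muscle were low: over 17 of them the mean log2 level was 4.28 to 4.34 in sham and 4.00 to 4.33 in injured arrays. For 9 of these markers both group means were below 3.91, the lowest lower quartile of any array. A gene below that value in its dimmer group is called dim here, and its fold change is not given. Below, a value without the word fold is a difference on the log2 scale, injured minus sham, and ± gives its standard error. That error rests on a spread shared by all 4 groups of the series, mock groups included. It can therefore differ from the scatter of the values shown. "Rose" and "fell" are used of genes whose adjusted p was under 0.05.

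Glycerol with anti-miR-22 changed a large part of the measured transcriptome. By limma's moderated test, with p-values adjusted over all probe sets, 7457 of 19505 named genes (38.2%) passed an adjusted p of 0.05. Of these, 3886 (19.9%) rose and 3571 (18.3%) fell, and the median log2 difference over all named genes was 0.00. Changes of at least 2-fold were called for 1499 (7.69%) higher and 1465 (7.51%) lower genes. At 4-fold or more, 395 genes were higher and 459 lower, and at 16-fold or more the counts were 62 and 73. At 64-fold or more 14 were higher and 9 lower. The 7 injured and 5 sham arrays did not overlap for 2542 genes that were higher (13%) and 2291 that were lower (11.7%). Genes named below for the largest changes were chosen among called genes with separate groups, so their lack of overlap is part of that choice. At the other end, 5895 genes (30.2%) had a 95% interval that lay within 0.5 of no change on the log2 scale. The shares 19.9% and 18.3% are the background for the gene groups below, and they cover all named genes, low signals included. With probe sets left out whose mean was under the overall median in all 4 groups, 3664 genes rose and 3177 fell among fewer genes. A group of bright genes can therefore exceed these shares and still lie near the share among bright genes, which was not worked out. Where a group is given with no rise or no fall, limma also found 0 of its members past an unadjusted p of 0.05 in that direction, except for 1 early response gene (Egr3) and 1 heat shock gene (Fkbp4) that were lower.

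The largest rises were in genes of tubular injury and repair. Havcr1 encodes KIM-1, a receptor on injured proximal cells that takes up dead cell remains. Its sham values were 7.12, 7.01, 7.15, 7.58 and 6.41, and its injured values ran from 18.72 to 19.08 with a median of 18.77. The injured arrays formed a tight group far above every sham array. The log2 difference was 11.78 ± 0.73 (SE), or 3523-fold, with an adjusted p of 2.6e-14. Lcn2, the iron-siderophore carrier NGAL, had sham values of 8.04, 8.94, 8.85, 8.49 and 8.86 and injured values from 18.62 to 18.94 with a median of 18.68. It rose 1083-fold (log2 10.08 ± 0.54, adjusted p = 1.11e-15). Again the groups were separated by a wide gap. Timp1, an inhibitor of matrix metalloproteinases, was dim in sham kidneys, at 3.84, 2.76, 3.73, 3.24 and 3.76, and ran from 11.35 to 13.17 with a median of 12.03 in injured ones, so only its rise is stated.

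**Figure D1:**
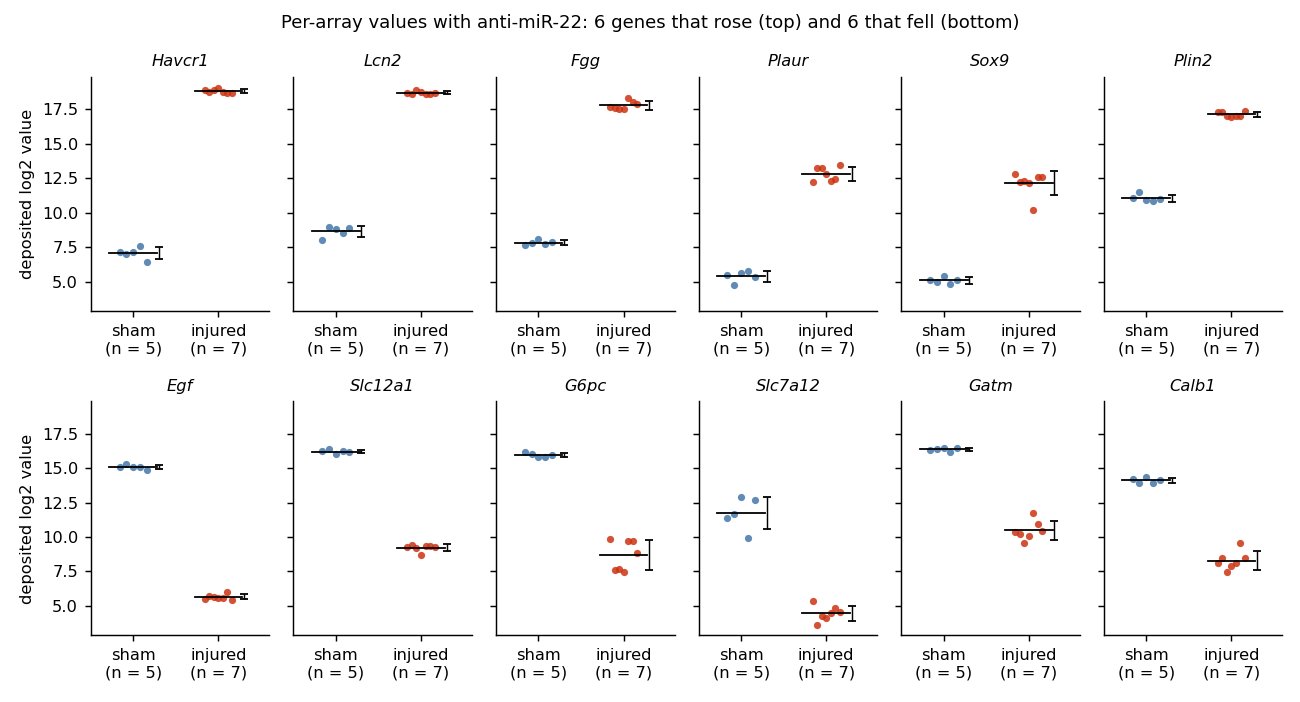
Deposited log2 values of 12 genes on the 5 sham and 7 injured arrays with anti-miR-22. Points are arrays, horizontal bars group means and whiskers 1 SD. In the top row every injured array lies above every sham array, and in the bottom row below; Havcr1 and Egf show the largest gaps and G6pc and Slc7a12 a wide spread in 1 group.

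Across the list of injury and repair genes, of 30 measured genes, 26 rose and 3 fell, with a median log2 difference of 3.49. Tnfrsf12a, the receptor for the cytokine TWEAK, rose 163-fold (log2 7.35 ± 0.20). Sox9, a transcription factor of regenerating tubule cells, had sham values of 5.11, 4.93, 5.42, 4.81 and 5.11 and injured values from 10.21 to 12.78 with a median of 12.30. All injured arrays were higher, and 1 of them lay well under the others. The galectin Lgals3 rose by a log2 difference of 5.99 ± 0.19, the secreted glycoprotein Lrg1 by 5.82 ± 0.42, and the annexins Anxa3 and Anxa2 by 5.51 and 4.75. Clu, which encodes clusterin, differed by 3.46 ± 0.16 and Cd44, a hyaluronan receptor, by 3.52 ± 0.19. Not all genes of this list rose: Il18 fell by 0.87, Timp2 by 0.69 and Igfbp7 by 0.33, and Prom1 was at -0.26 ± 0.18 without a call. The call of Igfbp7 was lost without several single arrays (adjusted p of up to 0.102, without sham array 5).

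Epithelial keratins and small proline-rich proteins, which stiffen stressed epithelium, rose as well: of 19 measured genes, 12 rose and 0 fell, with a median log2 difference of 1.11. Krt20 was dim in sham, at 3.52, 4.24, 3.50, 3.24 and 3.70, and ran from 9.98 to 12.23 with a median of 11.23 in the injured kidneys. Sprr2f rose 86.7-fold, Sprr1a 11.2-fold, and the simple epithelial pair Krt8 and Krt18 10.5-fold and 9.76-fold. The Sprr2 genes are near copies of each other, so the signal of a single member is uncertain. Of 8 urothelial markers, 1 rose (Krt5, which is also in the keratin list) and 2 fell. The mean level of these markers was 4.70 to 5.36 in sham and 4.66 to 5.14 in injured arrays.

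All 3 fibrinogen chains, best known as liver products, were among the largest rises. Fgg had sham values of 7.62, 7.81, 8.11, 7.75 and 7.86 and injured values from 17.52 to 18.35 with a median of 17.68. The rise was 1011-fold for Fgg, 309-fold for Fga and 146-fold for Fgb, each with no overlap between the groups. Hepatocyte markers did not rise with them. Of 16 measured, 0 rose and 4 fell, and their mean level was 6.16 to 6.49 in sham and 5.78 to 6.05 in injured arrays. Alb, which encodes albumin, was at -0.51 ± 0.19, a fall whose call was lost when any of several arrays was left out (adjusted p of up to 0.151, without sham array 5). Among the clotting and fibrinolysis genes, Plaur, the receptor that focuses urokinase on the cell surface, rose 174-fold, and F3, tissue factor, the starter of coagulation, rose 24.1-fold. The plasminogen activators themselves moved less: Plat by 0.97 ± 0.16 and Plau by 0.95 ± 0.15. Over the whole coagulation list, of 24 measured genes, 11 rose and 4 fell, with a median log2 difference of 0.39.

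The largest falls were in genes that define nephron segments. In whole kidney RNA, fewer cells of a type and less RNA per cell cannot be told apart. Egf, made by the thick ascending limb and distal tubule, had sham values of 15.11, 15.28, 15.12, 15.07 and 14.90 and injured values from 5.44 to 6.00 with a median of 5.61. It fell from among the brightest signals to about the array medians on every injured array, a 698-fold drop (log2 -9.45 ± 0.14, adjusted p = 4.38e-29). Slc12a1, the NKCC2 cotransporter that drives salt uptake there, had sham values of 16.24, 16.39, 16.02, 16.25 and 16.16 and injured values from 8.67 to 9.45 with a median of 9.31. Its fall was 127-fold. Of 15 thick limb markers 13 fell, among them Tmem207 (-5.92 ± 0.18), the calcium-sensing receptor Casr (-3.76 ± 0.14) and the potassium channel Kcnj1 (-3.16 ± 0.18). Umod, the most abundant product of this segment, fell by 0.72. Cldn14, a claudin that limits calcium uptake in this segment, was the member that rose, from a dim sham level.

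Every measured marker of the proximal tubule list fell (21 of 21), with a median log2 difference of -2.29. Gatm, which makes the creatine precursor guanidinoacetate, had sham values of 16.31, 16.39, 16.49, 16.20 and 16.44 and injured values from 9.59 to 11.78 with a median of 10.35. The fall was 58.9-fold. The lactate transporter Slc5a12 fell by 4.70, the water channel Aqp1 by 2.59 and Miox, the first enzyme of inositol breakdown, by 2.99. Kap, an abundant androgen-regulated transcript, fell least, by 0.30. In the more distal segments, 12 of 16 distal convoluted and connecting tubule markers fell, 12 of 13 principal cell markers and 12 of 15 intercalated cell markers. Calb1, the calcium buffer calbindin, fell 56.9-fold, Slc8a1, which pumps calcium out of the same cells, fell 17.5-fold, while Trpv5, the calcium entry channel, rose by 0.76 ± 0.18. Aqp2, the water channel under vasopressin control, fell by 1.47 and Aqp3 by 2.73. Among intercalated cell genes the ammonia channel Rhcg (-2.78 ± 0.19) and the proton pump subunit Atp6v1b1 (-2.34 ± 0.16) fell most, and the anion exchanger Slc4a1 was at -0.11 ± 0.18 without a call.

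Podocyte markers had a smaller median log2 difference, at -0.12, though of 17 measured genes 3 rose and 6 fell. For 6 of the 17 all injured arrays lay below all sham arrays, against 11.7% of all named genes. Npnt, Clic5 and Tcf21 fell most. The slit diaphragm gene Nphs1 was at 0.34 ± 0.16 and Synpo at -0.07 ± 0.16, neither called, while Cd2ap, an adaptor of the same structure, rose by 1.97 ± 0.16. Endothelial genes gave 4 rises and 11 falls among 28. The pan-endothelial marker Pecam1 was at 0.28 ± 0.14 and not called. Kdr, the main VEGF receptor, fell by 1.95, the angiopoietin receptor Tek by 1.44 and Angpt1, its ligand, by 2.00. The peptide gene Apln rose by 1.93, and the listed endothelial markers Cdh5 and Nos3 rose as well.

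**Figure D2:**
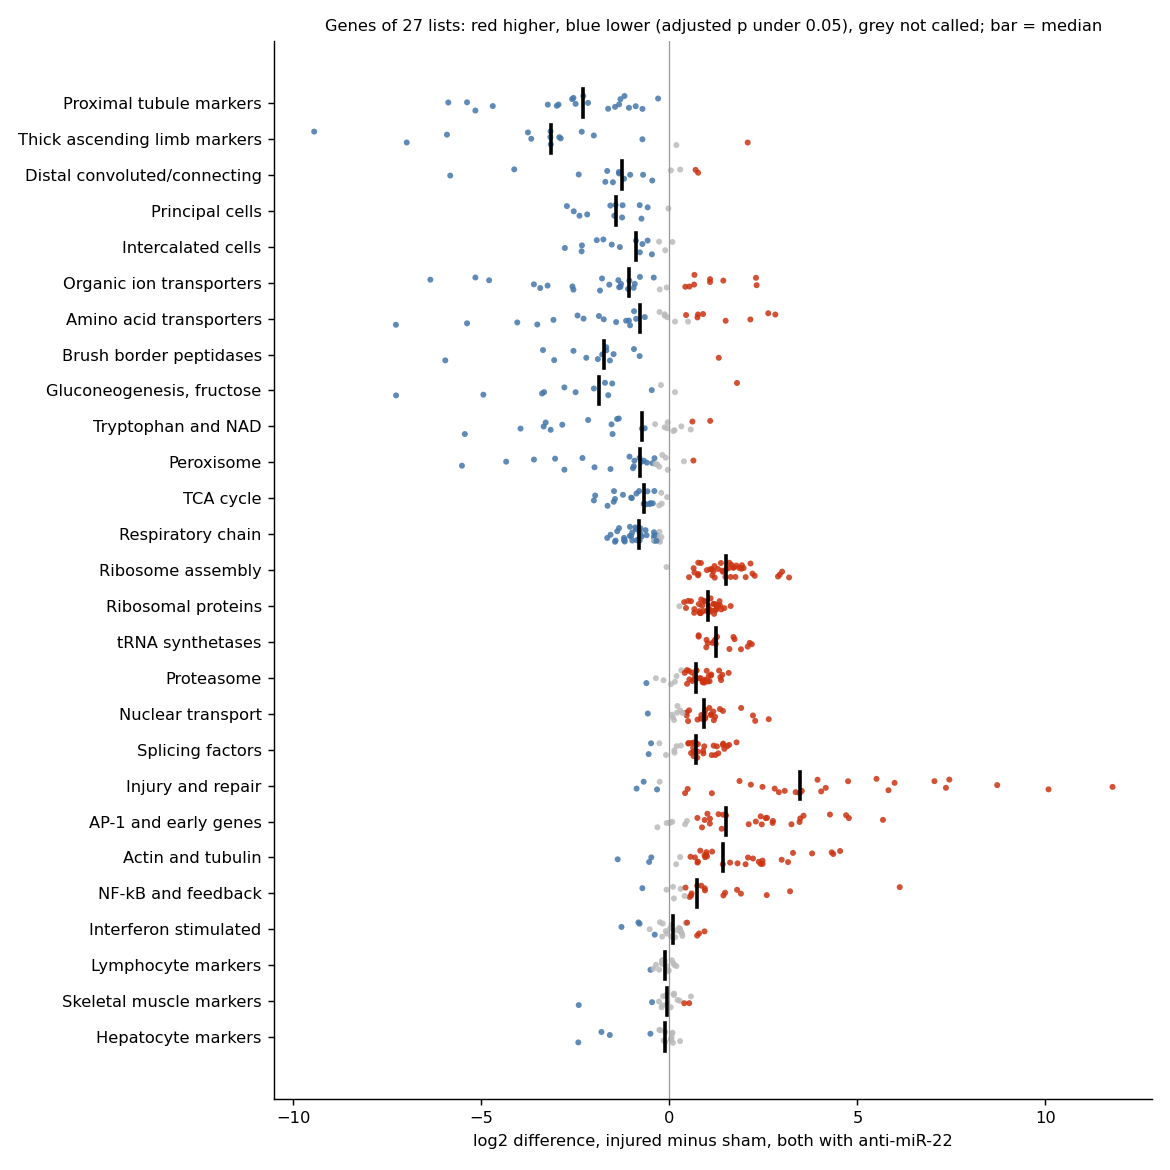
Log2 difference (injured minus sham, both with anti-miR-22) of each measured gene of the gene groups named on the left, 1 point per gene. Red and blue mark genes called higher and lower, grey genes not called, and the black bar is the median of the group. Segment markers, transporters and energy metabolism lie mostly left of 0, the ribosome, tRNA synthetase and proteasome genes right of 0, and lymphocyte, muscle and hepatocyte markers around 0.

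Most of the listed transporters of the proximal tubule fell. Of 23 carriers and enzymes for sugars, phosphate and anions, 17 fell. The phosphate carriers Slc34a1 and Slc34a3 fell by 1.63 and 4.44, whereas the widely expressed phosphate carriers Slc20a1 and Slc20a2 rose by 3.06 and 2.00. The carbonic anhydrase Car14 fell by 5.91 and Car4 by 4.49, while cytosolic Car2 was at -0.10 ± 0.13 without a call. The glucose carriers Slc5a2 and Slc2a2 fell by 1.20 and 1.52, and the general glucose carrier Slc2a1 rose by 2.41.

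Amino acid carriers were split: of 30 measured genes, 8 rose and 16 fell, with a median log2 difference of -0.77. Slc7a12 had sham values of 11.40, 11.70, 12.94, 9.96 and 12.68 and injured values from 3.63 to 5.39 with a median of 4.49. Its sham arrays were spread widely, with an SD of 1.19, and did not overlap with the injured ones. Slc7a13, a cystine and acidic amino acid carrier of the straight proximal tubule, fell by 5.38 and Slc6a19, the neutral amino acid carrier that is lost in Hartnup disorder, by 4.05. The members that rose include Slc38a2 (2.82 ± 0.18), the leucine carrier Slc7a5 (2.63 ± 0.17), the arginine carrier Slc7a1 (2.15 ± 0.22) and the cystine carrier Slc7a11 (1.49 ± 0.18).

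For organic ions, of 32 measured genes, 9 rose and 21 fell, with a median log2 difference of -1.08. Slc22a22 (-6.36 ± 0.27), Slc22a7 (-5.16 ± 0.40) and Slco4c1 (-4.80 ± 0.20), which carry prostaglandins, organic anions and thyroid hormone or digoxin, fell most. The classical drug carriers Slc22a6 and Slc22a8 fell by 1.34 and 2.55. The multidrug pumps Abcb1a and Abcb1b rose by 2.30 and 2.32. Of 16 brush border enzymes 14 fell, led by Mep1b, a meprin subunit, with sham values of 14.44, 14.81, 14.33, 14.60 and 14.27 and injured values from 8.10 to 9.04 with a median of 8.57. The groups lay far apart, a 62.3-fold fall. The diamine oxidase Aoc1 rose, by 1.31. The endocytic receptors megalin (Lrp2) and cubilin (Cubn) fell by 2.17 and 2.29, and their adaptor Dab2 rose by 1.28.

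The list of transcription factors that set nephron identity mostly fell: of 22 measured genes, 4 rose and 15 fell, with a median log2 difference of -0.90. Hnf4a, the main regulator of proximal genes, fell by 1.45, Esrrg by 2.50 and Maf by 2.06. Pax8, an early nephron factor, rose by 1.89, and Pax2 was at -0.24 ± 0.15 without a call. Of 28 tight junction genes 12 rose and 6 fell. Cldn4 (4.68 ± 0.23), Cldn1 (4.02 ± 0.23) and Cldn3 (2.92 ± 0.19) rose, while Cldn8, of the collecting duct, fell by 2.43 and the thick limb claudins Cldn10, Cldn16 and Cldn19 fell by 2.89, 2.33 and 2.01. Cdh16, the kidney cadherin, fell by 0.93 and Cdh1 (E-cadherin) rose by 0.45.

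Genes of energy metabolism fell across several pathways. For glucose production and fructose use, of 14 measured genes, 1 rose and 11 fell, with a median log2 difference of -1.86. G6pc, the last enzyme of glucose release, fell 154-fold, Pck1 fell 30.9-fold and the fructose carrier Slc2a5 10.1-fold. Glycolysis showed no common direction, with 8 rises and 6 falls among 22: Hk2 rose by 1.32, Pfkm fell by 2.06 and Aldoc by 3.34, and Ldha was at 0.22 ± 0.15 without a call.

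In the mitochondrion, none of 39 respiratory chain genes rose and 33 fell, with a median of -0.80. None of 23 TCA cycle genes rose and 19 fell, with a median of -0.69. The lowest respiratory gene was Ndufs7, a complex I subunit, at -1.65 ± 0.18, and the lowest TCA genes were Pcx at -2.01 ± 0.17 and Mdh1 at -1.98 ± 0.12. Mitochondrial ribosome genes had no common direction, with 10 rises and 10 falls among 42. Of 28 mitochondrial carriers 5 rose and 13 fell. Slc25a42 (coenzyme A import) fell by 4.43 and Slc25a21 by 3.69, while Slc25a24, a calcium-gated ATP and phosphate carrier, rose by 3.54.

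For fat use, of 30 measured genes, 3 rose and 19 fell, with a median log2 difference of -0.67. Acadm, the medium-chain dehydrogenase, fell by 2.53, and the regulators Ppara and Ppargc1a fell by 2.16 and 2.25. Cpt1a, which admits fatty acids into mitochondria, was at -0.35 ± 0.16 and not called. Pdk4, which blocks pyruvate entry into the TCA cycle, rose by 3.43. Plin2, the coat protein of lipid droplets, had sham values of 11.04, 11.51, 10.89, 10.85 and 10.98 and injured values from 16.98 to 17.38 with a median of 17.02. It rose 68.7-fold, with all injured arrays close together, while Lpin1, a regulator of fat oxidation and triglyceride synthesis, fell by 3.21. Peroxisomal genes gave 18 falls and 1 rise among 26, led by Hao2 (-5.52 ± 0.23) and Amacr (-4.34 ± 0.19). Of 21 genes of cholesterol synthesis and export 3 rose and 11 fell. Cyp51, Idi1 and Mvd fell by 2.87, 2.53 and 2.27, and the exporter Abca1 and the synthesis enzymes Fdps and Msmo1 rose by 1.75, 0.98 and 0.71.

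The breakdown of tryptophan and the making of NAD from it formed another group of falls: of 23 measured genes, 2 rose and 13 fell, with a median log2 difference of -0.73. Acmsd, which diverts tryptophan carbon away from NAD, fell 43.5-fold. Aadat fell by 3.96, Haao by 3.34 and Kmo by 3.16. Nampt, the salvage enzyme, was at -0.05 ± 0.15 and not called. In serine and one-carbon metabolism the members split. Mthfd2 (3.14 ± 0.27), Psat1 (2.55 ± 0.21), Mthfd1l (1.54 ± 0.19) and Phgdh (1.43 ± 0.27) rose, and 9 of 16 fell, led by the glycine cleavage gene Amt (-3.57 ± 0.19), Cbs (-3.08 ± 0.18) and Shmt2 (-2.26 ± 0.18). Arg2, mitochondrial arginase, rose 41.1-fold and Srm, spermidine synthase, 9.97-fold, while Odc1, ornithine decarboxylase, fell by 0.39. The call of Odc1 was lost under several alternatives, with an adjusted p of up to 0.138 (without sham array 4).

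Most of the listed detoxifying enzymes fell. Of 31 cytochrome P450 genes 19 fell and 4 rose. Cyp7b1 fell by 4.24, Cyp2j11 by 4.24 and Cyp2e1 by 2.49. Of 34 conjugating enzymes 22 fell and 10 rose, and the rises were mostly glutathione transferases: Mgst1 (3.68 ± 0.21), Gsta4 (1.95 ± 0.15) and Gstp1 (1.91 ± 0.18). Many of these families hold near copies, so single members are uncertain.

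Heme and redox genes responded in part. Hmox1, which opens the heme ring, had sham values of 10.96, 11.51, 10.77, 10.77 and 10.72 and injured values from 15.73 to 16.46 with a median of 16.03. It rose 34.9-fold with no overlap, and the biliverdin reductases Blvrb and Blvra rose by 2.33 and 2.05. Of the genes listed for heme transport, Slc46a1 fell by 1.60 and Flvcr2 by 2.58. Over the whole heme list 8 of 20 rose and 4 fell. For iron, of 26 measured genes, 10 rose and 6 fell, with a median log2 difference of 0.08. The metalloreductase Steap1 rose by 4.49 and Cp, the ferroxidase ceruloplasmin, by 3.36, whereas ferritin heavy chain (Fth1) was at 0.14 ± 0.10 without a call and the light chain Ftl1 rose by 0.68. Mt2, a metal-binding metallothionein, rose 30.4-fold and Mt1 4.3-fold.

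Of 30 thiol and NRF2-linked genes 17 rose and 6 fell. Srxn1, which repairs peroxiredoxins, rose 15.5-fold, Txnrd1, thioredoxin reductase, 8.84-fold and Nqo1, a quinone reductase, 4.38-fold. Gss, the second enzyme of glutathione synthesis, fell by 1.46 and mitochondrial Sod2 by 1.24. Of 10 NADPH-making enzymes and their partners 4 rose and 2 fell. Pgd, H6pd and Taldo1 rose by 3.11, 2.08 and 1.19, and the malic enzymes Me1 and Me3 fell by 0.97 and 2.00.

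Early response transcription factors rose broadly: of 33 measured genes, 26 rose and 0 fell, with a median log2 difference of 1.51. Myc, a driver of growth, had sham values of 8.13, 7.99, 8.29, 7.97 and 8.0 and injured values from 13.02 to 14.24 with a median of 13.93. It rose 51.2-fold, and no injured array came near the sham range. Fosl1 and Jun, partners in the AP-1 factor, rose 27.3-fold and 11.1-fold, and Cebpd and Klf6 rose 26-fold and 19.3-fold. Fos itself rose less, by 1.07 ± 0.14, while Fosb (0.42 ± 0.18) and Nr4a1 (0.47 ± 0.23) were not called. The phosphatases and Sprouty proteins that restrain MAP kinases gave 15 rises and 1 fall among 19. Dusp5 rose by 3.09 and Dusp8 by 2.80, and Dusp1 was at -0.37 ± 0.27 and not called. Within the MYC network, partner Max rose by 1.08, the opposing factor Mxi1 fell by 1.08, and 9 of 13 were not called.

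Ligands of the EGF receptor family went separate ways. Egf fell, Nrg1 rose 18.7-fold and Hbegf rose 4.09-fold, and Egfr rose by 1.07 while Erbb3 and Erbb4 fell by 1.20 and 1.29. Igf1 fell by 2.14. In the TGF-beta and BMP group 19 of 35 rose and 6 fell, with Tgfb1 at 2.20 ± 0.20, Smad3 at 2.21 ± 0.17 and the kidney-protective ligand Bmp7 at -1.75 ± 0.17.

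Since AP-1 and NRF2-linked genes rose, the 250 bases before the RefSeq start of each gene (GRCm38.p6) were searched on both strands for 7 motifs, for 15691 named genes with an entry in the promoter table. The AP-1 motif TGANTCA was found in 33 of 300 promoters of genes called at least 4-fold higher (11%), in 15 of 378 of genes at least 4-fold lower (3.97%) and in 999 of all 15691 (6.37%). The antioxidant response element TGACNNNGC was found in 17.7%, 9.26% and 10.7% of the same sets, and the cAMP response element TGACGTCA in 3%, 0.529% and 2.06%. The AP-1 and antioxidant motifs can overlap on the same bases. The amino acid response element TGATGNAA (2.33%, 3.17% and 3.05%), the E-box CACGTG (6.67%, 7.67% and 6.88%), the heat shock core GAANNTTC (4.33%, 6.35% and 6.02%) and the STAT motif TTCNNNGAA (6.33%, 5.29% and 6.77%) completed the search. The shares are descriptions and were not tested.

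5 of the 300 promoters held 2 AP-1 matches (46 of all 15691), and these are shown, with Plaur, which had the largest rise of the genes whose promoter held the motif. Capitals mark the motif, on the strand of the gene.
Plaur, chr7:24462403-24462431, plus strand: acccctggagcTGACTCActctttagcaa
F3, chr3:121723380-121723408, plus strand: cgcggcgctgtTGAATCAcggttgagtca
F3, chr3:121723391-121723419, plus strand: tgaatcacggtTGAGTCAcccctttcggg
Cldn4, chr5:134947157-134947184, minus strand: tctaggctggTGACTCAgtgtctgtgtc
Cldn4, chr5:134947075-134947103, minus strand: atactggcgggTGACTCAggggcccagga
Sprr1a, chr3:92486010-92486038, minus strand: ataactaaagcTGAGTCAgagggtgaact
Sprr1a, chr3:92485980-92486008, minus strand: ggggaggagggTGAGTCAtaggtgactgg
Srxn1, chr2:152105411-152105439, plus strand: ctcggagggccTGAGTCAccacgctgtgc
Srxn1, chr2:152105468-152105496, plus strand: caaattcacccTGAGTCAgcggccgggcg
Emp1, chr6:135362775-135362803, plus strand: gtctgtgtgtcTGAGTCAgagggagctac
Emp1, chr6:135362895-135362923, plus strand: taaatccagacTGATTCAtagaaactcct
These 6 genes rose 174-fold (Plaur), 24.1-fold (F3), 25.7-fold (Cldn4), 11.2-fold (Sprr1a), 15.5-fold (Srxn1) and 4.16-fold (Emp1, an epithelial membrane protein). Emp1 was named after the search and not by the rule for named genes.

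The listed genes of cytosolic protein synthesis mostly rose. Of 41 ribosome assembly genes 40 rose and none fell, with a median of 1.51. Nop58, a core protein of the RNA-modifying particles of the nucleolus, had sham values of 8.02, 8.40, 8.65, 7.88 and 8.53 and injured values from 11.26 to 11.95 with a median of 11.37. The groups did not overlap, and the rise was 9.08-fold. The nucleolar helicase Ddx21 rose 7.97-fold and Npm1, nucleophosmin, 4.45-fold. Gar1, at -0.08 ± 0.16, was the 1 member not called. Of 37 ribosomal protein genes 36 rose, with a median of 1.03 and a narrow range from 0.27 to 1.63. Ribosomal protein genes have many processed copies in the genome, which makes single members uncertain.

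All 18 measured members of the list of cytosolic tRNA synthetases rose, between 0.77 and 2.19, and for each of them the injured arrays did not overlap with the sham arrays. Vars, Nars and Tars, which charge valine, asparagine and threonine tRNAs, rose most, by 2.19, 2.13 and 2.08. The mitochondrial synthetases were outside that list and were looked up after the values were seen: of 16 measured genes whose names end in ars2, 2 rose (Mars2 and Yars2) and 5 fell (Aars2, Cars2, Fars2, Hars2 and Lars2, whose call was lost without sham array 1, at an adjusted p of 0.0501). Of 22 translation factors 19 rose and none fell. Eif4ebp1, a brake on cap-dependent initiation, rose 9.57-fold, Eif6, which keeps ribosomal subunits apart, 9.05-fold, and the helicase Eif4a1 5.41-fold. Eef2, the elongation factor, was at 0.05 ± 0.13 and not called.

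Genes that handle proteins and RNA moved the same way in smaller steps. The proteasome gave 30 rises and 1 fall among 37 (median 0.72). The immunoproteasome subunits Psmb8 and Psmb9 were at 0.04 ± 0.19 and -0.36 ± 0.17 without a call. For splicing factors, of 35 measured genes, 27 rose and 2 fell, with a median log2 difference of 0.70. For nuclear transport, of 33 measured genes, 24 rose and 1 fell, with a median log2 difference of 0.91, with Ranbp1 and Ran at 2.64 ± 0.16 and 2.22 ± 0.14. Heat shock genes gave 18 rises and 0 falls among 26, led by the small heat shock protein Hspb1 (3.52 ± 0.20). In the endoplasmic reticulum stress list 14 of 26 measured genes rose and 5 fell, with a median log2 difference of 0.45. Asns (3.30 ± 0.29), Atf3 (2.60 ± 0.18) and Atf4 (2.36 ± 0.21), genes of the amino acid response, rose most. The chaperone Hspa5 rose by 0.40, and Herpud1 fell most, by 1.08. The call of Hspa5 was lost under several alternatives, with an adjusted p of up to 0.148 (without sham array 3).

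Genes of p53 and growth arrest rose in part: of 24 measured genes, 14 rose and 3 fell, with a median log2 difference of 0.76. Cdkn1a, the cell cycle inhibitor p21, had sham values of 9.78, 9.86, 9.10, 9.38 and 10.00 and injured values from 14.31 to 15.14 with a median of 14.98. All injured arrays were higher, a 37-fold rise. Plk3, a stress kinase, rose 19.9-fold and Gadd45a 5.64-fold, while Mdm2 rose by 0.73 and Bbc3 (PUMA) was at 0.27 ± 0.13 without a call. Of 42 cell cycle genes 14 rose and 6 fell, with Cdkn1a and Cdk6 the largest rises. The replication genes Mcm2, Pcna and Mcm3 rose by 1.82, 1.65 and 1.50, and the division genes Mki67 and Ccnb2 fell by 1.99 and 1.54, while Top2a was at 0.13 ± 0.33 without a call and Cdk1, dim in the injured kidneys, was not called. The death list gave 14 rises and 4 falls among 37. The survival gene Bcl2l1 rose by 2.68, Mlkl, the pore-former of necroptosis, by 2.39, and Acsl4, which makes membranes prone to ferroptosis, by 2.25.

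Inflammatory signalling rose unevenly. Bcl3, a nuclear partner of NF-kB, rose 69.7-fold and Nfkbiz 9.23-fold, and 15 of 21 NF-kB genes rose with 1 fall. Among cytokines, Csf1, the macrophage growth factor, rose 26.2-fold, Lif 17.6-fold and Il34, a second ligand of the Csf1 receptor, 14.7-fold. Il6 rose from a dim sham level, with injured values from 5.08 to 6.13 with a median of 5.68. Tnf was called higher with both groups dim, and Ifng (-0.12 ± 0.15) and Il10 (-0.06 ± 0.20) were not called. Of 34 genes in that list 17 rose, 4 fell and 7 were dim in both groups.

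Among chemokines Ccl9 rose 13.9-fold and Cxcl14 6.51-fold, and Cxcl12, which holds leukocytes in tissue, fell 13.6-fold. Ccl2, the monocyte attractant, rose 3.03-fold, and Ccl12 had sham values of 4.55, 4.02, 4.21, 3.93 and 4.65 against injured values from 4.25 to 7.79 with a median of 6.41. The injured arrays for Ccl12 were widely spread, and 1 of them lay within the sham range. Of 35 chemokine genes 15 rose and 4 fell. Of 24 TNF family genes 10 rose and 2 fell. Beside Tnfrsf12a, Tnfrsf1a rose by 3.32 and Tnfrsf23 by 3.62, and the ligand Tnfsf10 (TRAIL) fell by 3.12.

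Interferon-stimulated genes did not rise as a group, with 5 rises and 4 falls among 27. Mx1 was at 0.04 ± 0.18, Ifit1 at 0.34 ± 0.16 and Irf7 at 0.02 ± 0.22, none called, whereas Sting1, the adaptor of cytosolic DNA sensing, rose 13.1-fold. Irf1 and Isg15 also rose, and Rsad2, Ifih1 and Tlr3 fell most. In the complement list 8 rose and 8 fell among 24: C4b rose by 1.39, and Masp2 fell by 3.97.

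Leukocyte markers moved beside these genes to differing degrees. Of 25 macrophage markers 12 rose and 2 fell, and their mean level was 5.86 to 5.95 in sham and 6.34 to 6.65 in injured arrays. Cd14 (3.70 ± 0.29), Gpnmb (3.20 ± 0.30) and Itgam (2.59 ± 0.17) rose, Csf1r fell by 1.69, and Adgre1 (F4/80) was at -0.24 ± 0.20 without a call. Of 16 neutrophil markers 5 rose, with a mean level of 4.03 to 4.15 in sham and 4.18 to 4.66 in injured arrays. In both groups 5 of the 16 were dim. The log2 differences of the neutrophil list ran from -0.30 to 1.56. Retnlg rose by 1.49 and S100a9 by 0.61 (for S100a9, adjusted p = 0.0554 without sham array 1). The granule genes Mpo and Elane were at 0.11 ± 0.17 and -0.19 ± 0.17 without a call. Lymphocyte markers gave 0 rises and 1 fall among 18, and 7 of the 18 were dim in both groups. Their mean level was 4.22 to 4.40 in sham and 4.00 to 4.33 in injured arrays, so a change in these cells could be missed. The part of these cells in the cytokine and chemokine changes was not tested.

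Matrix, adhesion and cytoskeleton genes moved in both directions. Actin and tubulin genes gave 28 rises among 33, with a median of 1.42. Tubb2a and Tubb6, beta-tubulins, rose 23.2-fold and 19.9-fold, and Actn1, an actin cross-linker, 20.5-fold. Tpm4, a tropomyosin with a high moderated t, rose 16-fold. The matricellular genes Ccn1 and Ccn2 rose 42.6-fold and 7.91-fold and Tnc, tenascin C, 7.33-fold. Of 29 collagen genes 12 rose and 5 fell. Among the fibrillar ones, Col3a1 rose by 2.34, Col1a1 by 0.57, and Col1a2 was at 0.07 ± 0.18 without a call. The call of Col1a1 was lost when any 1 of 4 arrays was left out (adjusted p of up to 0.0727, without sham array 5). The glomerular basement membrane chains Col4a3 and Col4a4 fell by 2.05 and 2.01, and the general chains Col4a1 and Col4a2 rose by 1.14 and 1.70. Of 27 matrix proteases and their inhibitors 11 rose and 8 fell. Adamts1 rose 17.2-fold, and Adamts4 rose from a dim sham level, while Adamts5, Timp3 and Mmp2 fell by 1.08, 0.88 and 0.86. Of 26 integrin and laminin genes 13 rose and 8 fell, with Itga3 up by 2.32 and Itgb8 down by 1.74.

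Of 14 core clock genes 5 rose and 6 fell, and of 10 output genes 2 rose and 7 fell, in kidneys all taken 24 h after glycerol. Arntl rose by 2.06 and Npas2 by 1.59, and Per3, Ciart and Cry2 fell by 2.80, 1.96 and 1.87. The output genes Usp2, Dbp and Hlf fell 18-fold, 14.5-fold and 11.9-fold. Dbp sham values were 16.76, 16.67, 16.27, 16.89 and 16.72 and injured values ran from 11.39 to 13.73 with a median of 13.05. These values did not overlap. The hour of the day of each kidney is not given in the labels, so its part was not tested. Hypoxia-linked genes gave 8 rises and 8 falls among 27, with Adm up by 2.70, Vegfa down by 0.43 and Car12 down by 3.88. The call of Vegfa was lost when any 1 of 4 arrays was left out (adjusted p of up to 0.106, without sham array 5). The hormone and mineral genes Kl (klotho) and Vdr fell by 3.07 and 2.00, and the vasoconstrictor gene Edn1 rose by 2.18.

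Genes reported elsewhere as targets of miR-22, a list taken from general knowledge, showed no single direction. Of these, 6 of 16 rose and 8 fell. Cdkn1a, Cdk6 and Bmp6 rose, the latter pair by 2.83 and 2.04, and Ppargc1a, Ppara and Bmp7 fell, while Sp1 was at -0.12 ± 0.12 without a call. Both groups received anti-miR-22, so this contrast holds the inhibitor constant. No member of that list had a called difference from the glycerol effect with mock. In the microRNA pathway Xpo5 rose by 1.10, Mov10 fell by 1.00, and Ago2 was at 0.30 ± 0.15 without a call. Of common reference genes, Gapdh was at -0.02 ± 0.10, Ppia at 0.15 ± 0.11 and B2m at 0.06 ± 0.12, none called, and Rplp0 and Actb rose by 1.19 and 0.97.

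Whether the glycerol effect differed from that with mock was tested as the difference of the differences. It was called for 77 named genes (0.395%), 43 (0.22%) with a higher and 34 (0.174%) with a lower effect under anti-miR-22. For 30 of the 77 the effects had opposite signs, for 39 they had the same sign and were larger with anti-miR-22, and for 8 they were smaller. Signs were counted whatever the size of the effect. Opposite signs therefore include genes near 0 in 1 setting, such as Angptl8 (1.23 with anti-miR-22 and -0.08 with mock), and do not alone mean a reversed response. Among the 1877 measured genes of all lists, 13 had a called difference. Zbtb16, a zinc finger factor (PLZF) responsive to glucocorticoids, differed most. With anti-miR-22 its sham values were 7.53, 7.30, 7.04, 7.74 and 8.20 and its injured values ran from 8.95 to 10.80 with a median of 9.50. With mock its sham values were 7.62, 8.60, 7.32, 8.69 and 8.56 and its injured values ran from 6.78 to 8.08 with a median of 7.34. It was higher after glycerol with anti-miR-22 (log2 2.06) and lower with mock (-0.76), a difference of 2.82 ± 0.41 (adjusted p = 0.00135).

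**Figure D3:**
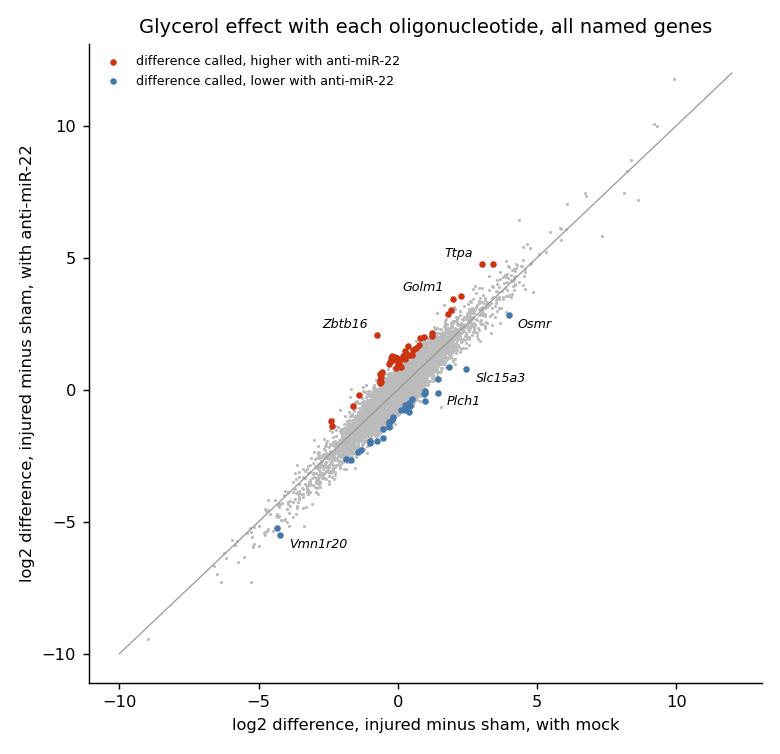
Log2 difference between injured and sham arrays with anti-miR-22 (vertical axis) against that with mock (horizontal axis), 1 point per named gene, with the line of equal effects. Red and blue points are the 43 and 34 genes whose difference of effects was called higher or lower with anti-miR-22; Zbtb16 lies farthest above the line.

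Ttpa, the vitamin E transfer protein, and Golm1, a Golgi membrane protein, rose in both settings and more with anti-miR-22. Ttpa was at 4.77 with anti-miR-22 and 3.03 with mock (difference 1.74 ± 0.34, adjusted p = 0.021), and Golm1 at 3.45 and 2.00 (difference 1.46 ± 0.26, adjusted p = 0.00851). Pim3, a survival kinase, had sham values of 8.89, 9.22, 8.97, 8.28 and 9.08 and injured values from 9.43 to 10.92 with a median of 10.22 with anti-miR-22. Its injured arrays all lay above its sham arrays there, while with mock the effect was -0.22 (difference 1.50 ± 0.30, adjusted p = 0.021). Fosl1 rose by 4.77 with anti-miR-22 and 3.43 with mock, a difference of 1.34 ± 0.29 (adjusted p = 0.0338). Rgcc, a cell cycle regulator, was at 1.20 with anti-miR-22 against -0.24 with mock, and Angptl8, a regulator of lipoprotein lipase, at 1.23 against -0.08, each with a called difference.

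In the other direction, Plch1, a phospholipase C, was at -0.11 ± 0.25 with anti-miR-22 and 1.45 with mock. Slc15a3, a lysosomal peptide carrier of immune cells, had sham values of 5.33, 5.68, 5.62, 5.60 and 5.28 and injured values from 5.64 to 6.94 with a median of 6.17 with anti-miR-22. With mock its sham values were 6.04, 5.88, 5.90, 6.41 and 6.09 and its injured values ran from 8.09 to 9.06 with a median of 8.58. The injured mock arrays were higher than all others, and the effects were 0.77 with anti-miR-22 and 2.47 with mock (difference -1.70 ± 0.26, adjusted p = 0.00191). Dctn4, a dynactin subunit, differed in sign, at -0.41 and 0.98 (difference -1.39 ± 0.19, adjusted p = 0.0013). Ddc, which makes dopamine in proximal cells, fell by 1.84 with anti-miR-22 and was at -0.52 with mock, and Ifih1, a sensor of viral RNA, was at -0.82 and 0.41. Osmr, the oncostatin M receptor, rose in both, by 2.82 and 3.98, with a difference of -1.16 ± 0.27 (adjusted p = 0.0487).

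These differences were less firm than the glycerol effect itself. Leaving out 1 array at a time left between 16 (without injured anti-miR-22 array 4) and 59 (without injured mock array 3) genes with a higher effect, and between 10 (without sham anti-miR-22 array 1) and 69 (without injured mock array 3) with a lower one. With dim probe sets left out of the test the counts were 105 and 141. Zbtb16, Ttpa, Golm1, Pim3, Rgcc, Slc15a3 and Dctn4 were past the threshold under every alternative run. Fosl1, Osmr, Angptl8, Plch1, Kdr, Nars, Ddc and Ifih1 were not when some single arrays were left out, nor were Slc16a7 and Vmn1r20, for example Ddc without sham anti-miR-22 array 1 (adjusted p = 0.0504) and Osmr without sham mock array 4 (0.0898). Osmr, Kdr and Slc16a7 also lost the call with the replicate number as a block (adjusted p = 0.0714, 0.0506 and 0.0576).

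**Figure D4:**
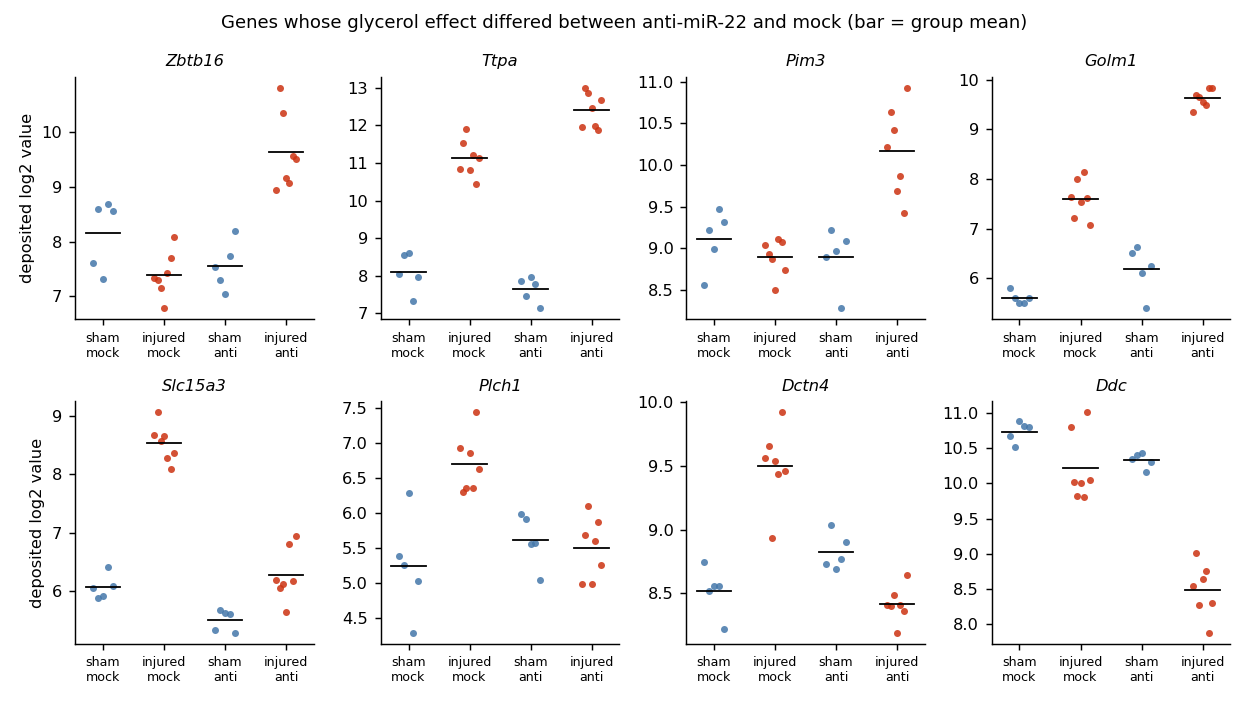
Deposited log2 values of 8 genes with a called difference of glycerol effects, on the 5 sham and 7 injured arrays with mock and with anti-miR-22. Points are arrays and bars group means, and each panel has its own vertical range. In the top row the injured anti-miR-22 arrays are the highest group, and in the bottom row the injured mock arrays are the highest for Slc15a3, Plch1 and Dctn4 and the injured anti-miR-22 arrays the lowest for Ddc.

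The median SD over named genes was 0.27 among the 7 injured and 0.248 among the 5 sham arrays, values that rest on unequal numbers of arrays and were not tested. Over the 395 genes called at least 4-fold higher, the mean log2 rise of a single injured array over the sham mean lay between 2.89 and 3.20. Over the 459 genes at least 4-fold lower the mean lay between -3.24 and -2.87. These genes were chosen for their mean change on the same arrays, so the size of these means follows in part from that choice. The array with the smallest mean rise also had the smallest mean fall. The called genes with the largest injured SD were G6pc (1.10), Keg1 (1.29), Slc16a14 (1.15), Ccl12 (1.23) and Akap12 (1.16). G6pc ran from 7.43 to 9.86 with a median of 8.86 against sham values of 16.17, 16.07, 15.85, 15.79 and 15.95. All of its injured arrays were low, and they were far more spread than the sham arrays. Akap12, a scaffold for protein kinase A, ran from 10.78 to 13.96 with a median of 12.11 against sham values of 7.09, 7.26, 7.74, 7.41 and 7.44, so that its groups were separate in spite of the spread.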

How the data were processed

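Whole kidney RNA was hybridised to Clariom S mouse arrays, 1 sample per array. The authors deposited 1 table of log2 values per probe set. The submitters' processing notes name RMA and Partek 6.4 without their role or order, and the values were used on the log2 scale as deposited, from 2.12 to 19.9. Of 22206 lines, 1 with missing values was left out. The deposited platform annotation gave 1 gene symbol for 19572 of the 22205 probe sets tested and none for 2633, so those were tested and not named. For 55 genes with several probe sets the brightest one on average was used.

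In R 4.3.3, limma 3.58.1 (lmFit, then eBayes) fitted 4 group means to the 24 arrays, so that the groups share 1 estimate of the spread. The contrasts were injured minus sham with anti-miR-22, the same with mock, and their difference. The p-values were adjusted by Benjamini-Hochberg over all 22205 probe sets and a gene was called at an adjusted p under 0.05. The fit was tested on simulated data with the spread of these arrays. It called 88% of 100 probe sets shifted by 1 on the log2 scale and 15% of 100 shifted by 0.5 in the glycerol effect with anti-miR-22, and 45% and 3% in the difference. All other simulated probe sets had equal group means, whereas 38.2% of named genes were called in the measured glycerol effect. The adjusted threshold was therefore stricter in the simulation, and its 88% and 15% do not give the recovery in these data. A gene whose dimmer group mean was below 3.91 has no fold change. Precision is limited by the number of arrays. The labels give no hybridisation batch.

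The members and lists were chosen with earlier results of these data known. Of 2059 distinct names in 88 gene lists, 180 had no match and are not analysed here. The other 1879 names stand for 1877 measured genes, since 2 genes were listed under an older and a current name. Lists are described by counts and medians without a test. The named genes are taken from the 20 largest called changes in each direction with separate groups, the 10 highest and 10 lowest moderated t values, members of the lists, the 10 largest called differences of effects in each direction, and the 5 called genes with the largest spread among the injured arrays. Promoter motifs were searched on both strands of RefSeq promoter sequences. The alternatives were trend and robust moderation, quantile normalization, median centring, dim probe sets left out, the replicate number as a block, the 12 anti-miR-22 arrays alone, array weights, the mean over a gene's probe sets, and each array left out in turn.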

Additional observations from a re-analysis of the deposited data

Results flagged for a closer look

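Among the named genes that were checked, 1 array stood far from the others of its group in 37 of 702 sets of sham or injured values (5.27%). This was judged by the gap to the nearest other array over the range of the group. Chance gives about 1 in 20. Sham array 3 held 9 and injured array 5 held 6 of these values, the most in each group.

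In the sham group, low values were those of Adgre1 at 5.12 (group median 5.86), Amacr at 12.46 (group median 12.88), Amt at 11.10 (group median 11.58) and Aqp2 at 14.43 (group median 15.08). Others were Cldn1 at 8.15 (group median 8.80), Cxcl12 at 14.16 (group median 14.67), Dab2 at 16.87 (group median 17.15) and Ddx21 at 9.36 (group median 9.51). Further ones were Fth1 at 19.42 (group median 19.61), Mcm3 at 4.46 (group median 5.76), Nphs1 at 8.45 (group median 9.02) and Prom1 at 11.78 (group median 12.18). Also low were Slc22a8 at 16.31 (group median 16.92), Umod at 18.02 (group median 18.30) and Usp2 at 10.74 (group median 11.55). High values in the sham group were those of Acadm at 13.47 (group median 13.27), Akr1b8 at 7.39 (group median 6.47), Ccn1 at 10.80 (group median 9.29) and Col4a1 at 8.01 (group median 7.24). Others were Fdps at 7.15 (group median 6.81), Itga3 at 10.30 (group median 9.67) and Plin2 at 11.51 (group median 10.98).

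In the injured group, low values were those of Ago2 at 9.15 (group median 9.75), Atp6v1b1 at 9.42 (group median 9.64), Bcl3 at 10.74 (group median 12.43) and Csf1 at 12.36 (group median 14.00). Others were Idi1 at 7.61 (group median 8.18), Npm1 at 15.47 (group median 15.83), Pfkm at 6.60 (group median 7.36) and Slc12a1 at 8.67 (group median 9.31). Further ones were Slc20a2 at 11.60 (group median 12.36), Sox9 at 10.21 (group median 12.30), Sprr1a at 6.94 (group median 8.47) and Sting1 at 8.68 (group median 9.21). Also low was Tinagl1 at 15.04 (group median 15.86). High values in the injured group were those of Cdh16 at 15.64 (group median 15.23) and Pdk4 at 11.97 (group median 10.95).

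For these genes the limma test of the difference between the glycerol effects with anti-miR-22 and with mock passed the threshold. The log2 differences above 0 were Angptl8 1.31 (adjusted p = 0.0297), Fosl1 1.34 (adjusted p = 0.0338), Golm1 1.46 (adjusted p = 0.00851) and Nars 0.92 (adjusted p = 0.038). The others above 0 were Pim3 1.50 (adjusted p = 0.021), Rgcc 1.44 (adjusted p = 0.0154), Ttpa 1.74 (adjusted p = 0.021) and Zbtb16 2.82 (adjusted p = 0.00135). Those below 0 were Dctn4 -1.39 (adjusted p = 0.0013), Ddc -1.32 (adjusted p = 0.0248), Ifih1 -1.23 (adjusted p = 0.0248), Kdr -0.96 (adjusted p = 0.0436) and Osmr -1.16 (adjusted p = 0.0487). The others below 0 were Plch1 -1.56 (adjusted p = 0.0443), Slc15a3 -1.70 (adjusted p = 0.00191), Slc16a7 -0.91 (adjusted p = 0.042) and Vmn1r20, dim in injured kidneys with anti-miR-22, -1.26 (adjusted p = 0.034).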

How the results depend on the processing

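With anti-miR-22, the counts of genes higher and lower after glycerol stayed within 1.5 times of 3886 and 3571 under every alternative run, and none of the 7457 called genes changed sign. Leaving out single arrays gave 3608 to 3966 higher and 3362 to 3634 lower. Of 312 called genes of the text that were checked, 302 were past the threshold under every alternative. The others were Alb, Odc1, Lars2, Hspa5, Vegfa, S100a9, Col1a1, Igfbp7, Kap (lost with the replicate block alone) and Dctn4 (adjusted p = 0.0568 without sham array 2). Of the genes given as not called, 9 were called under some alternative: Ago2, Cpt1a, Egr3, Fkbp4, Fosb, Ifit1, Nphs1, Nr4a1 and Tsc22d3. The difference between the anti-miR-22 and mock effects depended more on the setting. Against 43 higher and 34 lower, trend and robust moderation gave 71 and 82 and dim probe sets left out gave 105 and 141. The lower count was 60 after quantile normalization and 65 with array weights. Leaving out single arrays gave 16 to 59 higher and 10 to 69 lower, and 7 of the 17 named genes with a called difference kept it under every alternative. The cause of these shifts was not tested. Titles share replicate numbers, but same-numbered samples did not deviate together, with correlations of -0.03 to 0.07 with anti-miR-22. The fit with the replicate number as a block gave 3742 higher and 3516 lower, and 37 and 42 for the difference, where 63 of the 77 calls were kept.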

Other observations

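Several of the largest changes lay in genes outside the groups described above. Akr1b8, an aldo-keto reductase that removes reactive aldehydes, rose 68.4-fold. Plp2, a membrane proteolipid, rose 18.2-fold and Tinagl1, a basement membrane protein, 25.2-fold, both among the 10 highest moderated t values. Among the falls, Fam107a, an actin-bundling stress gene, had sham values of 13.77, 13.85, 13.60, 13.59 and 13.90 and injured values from 6.62 to 7.32 with a median of 7.15. It fell 103-fold with no overlap between the groups. Abca13 fell 92.3-fold, Clec2h 80.5-fold, Wfdc15b 72.2-fold and Nccrp1 51.6-fold. Nat8f1, of the N-acetyltransferase family, fell by 5.41, the monocarboxylate carrier Slc16a7 by 5.24, the steroid reductase Akr1c14 by 5.22 and the kinase Cdkl1 by 4.40. The vomeronasal receptor genes Vmn1r19 and Vmn1r20, which are near relatives, fell to dim levels in injured kidneys. Vmn1r19 had sham values of 8.68, 9.31, 9.26, 9.39 and 8.93 and injured values from 2.66 to 4.35 with a median of 3.27. Relatives can share probe signal, and which transcript gave it was not tested.

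Lysosomal genes had no common direction, with 10 rises and 9 falls among 31. The cathepsins Ctsl and Ctsb rose by 1.83 and 1.61 and Gabarapl1, of the autophagosome membrane, fell by 1.57. Of 17 glucocorticoid-responsive genes 9 rose and 2 fell. Fkbp5, a chaperone of the receptor, rose by 1.44, and Tsc22d3 (GILZ) was at -0.50 ± 0.22 without a call. Adhesion molecules gave 10 rises and 2 falls among 19, with Icam1 up by 0.90.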
